A study of Mus musculus with 24 samples.

Results

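Gene expression was followed in *Ctcflos* knockdown (KD) cells between 24 h and 72 h after transfection, to describe which genes of fat cell maturation still rose or fell in cells treated against this long noncoding RNA. The 12 KD libraries, 6 at 24 h and 6 at 72 h, were chosen by their sample titles from 24 libraries in all, and the other 12 came from cells given a nontargeting control (NC). The cells were primary preadipocytes of 129SvEv mice, cultured from stromal-vascular cells of their inguinal white fat. Every culture, KD and NC alike, had been induced for 2 days with insulin, T3, IBMX, indomethacin, dexamethasone and rosiglitazone, and differentiated for 1 day with insulin, T3 and rosiglitazone. KD cells were then reverse transfected at 50 nM with an LNA gapmer, a chemically modified antisense strand through which RNase H cuts the bound RNA, and NC cells with a gapmer that has no cellular target. Per the study's methods, cultures were either harvested at 24 h or given fresh differentiation medium at that point and harvested at 72 h, so that time and the change of medium cannot be told apart. The study calls the samples of a group biological replicates. The labels do not say whether they came from separate animals or only from separate cultures, so p-values measure the spread between these libraries.

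Brite adipocytes are fat cells that arise within white adipose tissue and share thermogenic features with brown fat. As a preadipocyte matures it leaves the cell cycle, loses fibroblast-like matrix and stromal genes, and switches on genes for lipid uptake, lipid droplets and adipokines under control of PPARγ, the receptor that rosiglitazone activates. The thermogenic programme comes on top of this, with the uncoupling protein UCP1, which lets protons back into the mitochondrial matrix so that fuel oxidation yields heat, and with many respiratory chain proteins.

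RNA of the targeted gene was measured first. The study used gapmers against different transcripts of *Ctcflos*, the labels do not say which of them the KD libraries received, and whether the transcript measured here is the targeted one is therefore not known. *Ctcflos* (1300015D01Rik, NR_040321) was covered by 0 to 6 reads in every KD library. It averaged 0.189 ± 0.244 RPKM (SD, n = 6) in KD 24 h and 0.231 ± 0.220 RPKM (SD, n = 6) in KD 72 h, against 0.741 ± 0.515 RPKM (SD, n = 6) in NC 24 h and 1.23 ± 0.408 RPKM (SD, n = 5) in NC 72 h, where replicates 2 and 3 differed by less than the sampling noise and were averaged and counted as 1 sample. RPKM relates the reads of a transcript to its length in kilobases and to all reads mapped in that library. KD minus NC was -0.552 RPKM at 24 h (two-sided exact permutation test, p = 0.045) and -0.995 RPKM at 72 h (exact p = 0.0043). Between the 2 KD times the means differed by 0.0421 RPKM, with an exact p of 0.78. A count of 0 allows up to 3 reads, worth 0.178 to 0.223 RPKM in the 4 KD libraries concerned and covering counting error only, so a change within KD was not detectable at this depth.

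Recovered depth was 1391832 mapped reads in KD 24 h replicate 6 and reached 5246160 in the other KD libraries. KD 72 h replicates 5 and 6 stood apart, with 10.3% and 8.65% of all RPKM in their 10 most abundant entries, against 14.35% to 19.67% in the other KD libraries. By their correlated deviations from the mean of each group, the KD libraries formed a larger and a smaller cluster, and the latter held KD 24 h replicates 3 and 4 and KD 72 h replicates 5 and 6. Of the 147 named genes called over time in KD, 22 did not pass without KD 72 h replicates 5 and 6, which is stated beside each, and 21 did not pass in the larger and 36 in the smaller cluster alone, where fewer libraries enter. Within-cluster values are given for the genes whose change in the smaller cluster was closest to 0 and for the lists whose counts parted. The clusters were formed from these same values, so splitting by them removes spread within each group, and within-cluster p-values run too small. Across the 2 times the clusters were weakly linked, with a mean correlation of deviations of 0.053 within a cluster and -0.066 between clusters. The adipocyte markers *Adipoq*, *Fabp4*, *Plin1*, *Lpl*, *Cidec*, Lipe and Cfd were above 0 in each KD library. They summed to 38960 to 52345 scaled RPKM at 24 h and 27768 to 37540 at 72 h, most of it *Fabp4*. Those of brite cells, *Ucp1*, *Cidea*, *Cox7a1*, *Ppargc1a* and *Elovl3*, summed to 343 to 499 scaled RPKM at 24 h and 405 to 765 at 72 h. Macrophage markers summed to 3.02 to 22.9 scaled RPKM at 24 h and 6.49 to 14.7 at 72 h, and endothelial markers to 0.203 to 1.10 and 0.602 to 3.21. Epithelial markers summed to 0 to 1.63 and 0.326 to 1.66, and those of Schwann cells to 3.18 to 5.16 and 1.19 to 4.28, with Sox10 at 0 in all 12 KD libraries. Smooth muscle and pericyte markers summed to 143 to 676 at 24 h and 196 to 267 at 72 h. Markers of mesothelial cells summed to 26.1 to 80.8 at 24 h and to 101 to 171 at 72 h, nearly all of it the keratin *Krt19*, and without *Krt19* the sum stayed at or below 2.98 in every library. In bulk RNA, fewer cells of a type and less RNA per cell cannot be told apart.

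KD cells went on changing between the 2 times in both directions. Of 11333 genes tested, 1255 (11.1%) were called, 684 higher (6.04%) and 571 lower (5.04%) at 72 h, by limma at an adjusted p under 0.05 on log2(scaled RPKM + 0.1). Scaling sets the bulk of genes equal between libraries. On the deposited scale the median gene lay 0.15 higher at 72 h on the log2 scale, and the calls became 1213 higher (10.7%) and 298 lower (2.63%). The split between rises and falls therefore depends on the scaling, and changes are given relative to the bulk of genes unless stated. Levels are scaled RPKM, written as the median with the lowest and highest of the 6 libraries in brackets, and changes are log2 fold changes of 72 h over 24 h with their SE. The 2 groups of 6 libraries did not overlap for 819 genes (7.23%), 470 higher (4.15%) and 349 lower (3.08%). Of the 1255 calls, 1251 had the same sign within the larger cluster and 1239 within the smaller one. The calls came from these same libraries, so this agreement of sign was largely fixed in advance. In both clusters 487 were called with the same sign, where fewer libraries enter. When KD 72 h replicates 5 and 6 were left out, 844 were still called with the same sign.

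Some thermogenic markers rose. *Ucp1*, the uncoupling protein, stood at 63.5 (46.96 to 84.9) at 24 h and at 135 (110.2 to 261) at 72 h. The 2 groups did not overlap, and the change was 1.29 ± 0.22 (adjusted p = 0.0013), or 2.44-fold. The rise was 0.91 within the larger cluster and 2.04 within the smaller one, and both passed the test there. *Cidea*, a lipid droplet protein typical of brown and brite cells, went from 12.3 (8.48 to 14.2) at 24 h to 29.4 (20.7 to 34.9) at 72 h (1.27 ± 0.17, adjusted p = 0.00028). *Kcnk3*, a potassium channel of brown fat, went from 12.1 (8.504 to 13.9) at 24 h to 24.8 (17.6 to 32.6) at 72 h (1.08 ± 0.19, adjusted p = 0.0020), and it too separated the groups. *Fabp3*, a fatty acid binding protein induced in brown fat, rose less, from 17.3 (14.3 to 29.1) at 24 h to 32.4 (23.6 to 38.4) at 72 h (0.75 ± 0.18, adjusted p = 0.015), with overlapping groups. Within the larger cluster *Fabp3* did not pass (adjusted p = 0.078), and within the smaller one *Kcnk3* did not (adjusted p = 0.065).

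Other thermogenic genes did not follow. *Cox7a1*, a muscle and brown fat subunit of cytochrome c oxidase, lay at 296 (196 to 369) at 24 h and 262 (195 to 367) at 72 h. Its change of -0.05 ± 0.18 did not pass (adjusted p = 0.89), and its sign differed between the larger (-0.45, adjusted p = 0.053) and the smaller cluster (0.73, adjusted p = 0.0017). *Elovl3*, a fatty acid elongase of brown fat, had 1 low library at 24 h and levels of 66.995 (24.2 to 90.3) and 99.3 (77.1 to 102) (0.66 ± 0.25, adjusted p = 0.10). *Ppargc1a*, the coactivator that drives mitochondrial biogenesis, was lower at 72 h, from 3.28 (2.03 to 5.36) at 24 h to 1.59 (1.12 to 2.79) at 72 h (adjusted p = 0.045), a log2 change of -0.997 ± 0.30. This call rested on nearly every library and was lost without KD 24 h replicate 1, 3, 4 or 6 or KD 72 h replicate 1, 2, 3, 4 or 5 (adjusted p up to 0.10). In all, 4 of 16 tested thermogenic markers rose and 1 fell, 24 having been listed, and their median change was 0.12 against -0.00066 over all genes tested. Without the scaling 7 rose and 0 fell.

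The regulators of brown and brite fate that were called over all 12 libraries were lower at 72 h. *Rxrg*, the retinoid X receptor that pairs with PPAR and thyroid hormone receptors, was 17.8 (15.2 to 22.7) at 24 h and 8.17 (6.15 to 10.6) at 72 h, a change of -1.15 ± 0.16 (adjusted p = 0.00036) with no overlap. *Klf11*, a Krüppel-like factor that acts with PPARγ, also fell, from 1.43 (0.980 to 3.29) at 24 h to 0.719 (0.407 to 0.937) at 72 h (-1.10 ± 0.31, adjusted p = 0.032), though not without KD 24 h replicate 1 or 2 or KD 72 h replicate 1, 2, 4 or 5 (adjusted p up to 0.073) or without KD 72 h replicates 5 and 6 together (adjusted p = 0.096). With *Ppargc1a* these were the 3 of 19 tested regulators that fell (15.8%, against 5.04% of all genes tested), and 0 rose. *Prdm16* changed by -0.52, *Pparg* by 0.24, *Nfia* by 0.34, *Ebf1* by 0.53 and *Cebpb* by -0.24, and none of these passed (adjusted p = 0.13 to 0.50). NC cells had 0 rises and 2 falls among 19 at a median of -0.19, and *Rxrg* changed by -1.35 there. In KD cells the list's median was -0.31. Within the larger cluster 3 rose and 2 fell, and within the smaller one 0 rose and 3 fell. As deposited, values gave 1 fall and 2 rises, so the direction of its calls depends on the scaling.

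**Figure D1:**
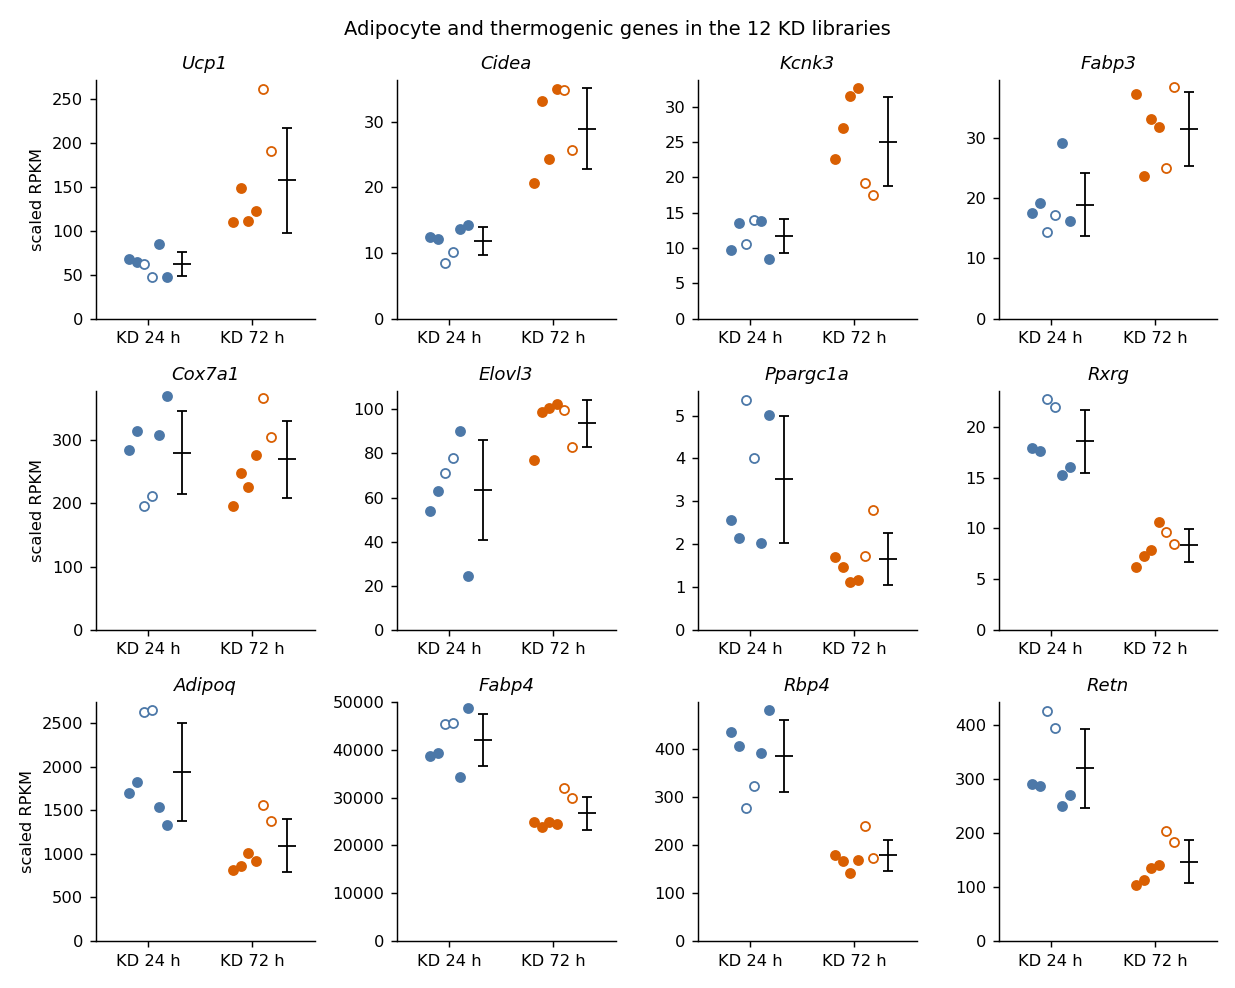
Scaled RPKM of 12 adipocyte and thermogenic genes in the 6 KD 24 h (blue) and 6 KD 72 h (orange) libraries, each panel on a linear axis from 0. Filled points are libraries of the larger cluster, open points those of the smaller one, and black marks give the mean ± SD. Ucp1, Cidea and Kcnk3 are higher at 72 h in every library, Rxrg, Fabp4, Rbp4 and Retn lower in every library, and Cox7a1 overlaps.

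Genes that define the fat cell itself were more often lower than higher at 72 h. Of 24 tested adipocyte genes, 7 fell and 1 rose, and their median was -0.20, with 6 falls and 2 rises on the deposited scale. NC cells had nearly the same counts, with 6 lower and 1 higher of 24 at a median of -0.09. *Fabp4*, the fatty acid binding protein that is among the most abundant messages of these cells, went from 42413 (34272 to 48757) at 24 h to 24913 (23868 to 32100.0) at 72 h (-0.65 ± 0.13, adjusted p = 0.0042) without overlap. *Adipoq*, which encodes the adipokine adiponectin, went from 1763 (1330.0 to 2654) at 24 h to 966 (820.4 to 1561) at 72 h (-0.83 ± 0.20, adjusted p = 0.017), and the groups overlapped. The 4 libraries of the smaller cluster were the highest of their groups for *Adipoq*, and the fall was as large within each cluster, -0.83 in the larger and -0.84 in the smaller. *Rbp4*, the retinol carrier of plasma, fell from 399 (277 to 481) at 24 h to 171 (142 to 239) at 72 h (-1.11 ± 0.15, adjusted p = 0.00025). *Retn*, which encodes resistin, fell from 289 (249.9 to 427) at 24 h to 138 (104 to 204) at 72 h (-1.14 ± 0.18, adjusted p = 0.0010). Both separated the 2 groups completely. *Agt*, the angiotensin precursor, fell to 8.70 (5.81 to 19.01) from 27.9 (22.1 to 37.1) (-1.49 ± 0.27, adjusted p = 0.0023). The remaining falls were *Adig*, a small adipocyte membrane protein (-1.03, adjusted p = 0.0049), and *Car3*, a carbonic anhydrase abundant in fat (-1.01, adjusted p = 0.044), whose call was lost without KD 24 h replicate 2, 3, 4 or 5 or KD 72 h replicate 1, 2, 3, 4 or 6 (adjusted p up to 0.098). The single rise was *Sncg*, a synuclein of adipocytes and neurons, at 31.7 (16.95 to 47.9) and then 79.4 (56.1 to 95.5) (1.31 ± 0.23, adjusted p = 0.0023).

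Other defining members did not pass the test. *Plin1*, the coat protein of large lipid droplets, had levels of 20.7 (13.9 to 24.3) and 12.8 (7.82 to 18.7) (-0.64 ± 0.20, adjusted p = 0.051). *Lpl*, the lipase that frees fatty acids from circulating lipid, lay at 1093 (882 to 1400.3) and 874 (809 to 1249) (-0.22 ± 0.15, adjusted p = 0.39). *Cidec*, which fuses lipid droplets, lay at 2214 (997 to 2609.8) and 2202 (1871 to 2599) (0.22 ± 0.20, adjusted p = 0.54). Of 20 tested genes of lipid droplets and lipolysis, *Cidea* alone rose and 0 fell. Of 14 tested genes of triglyceride synthesis, 1 fell and 0 rose. This was *Agpat9*, a glycerol phosphate acyltransferase (-0.51, adjusted p = 0.035), and its call was lost on the deposited scale (adjusted p = 0.18) and without KD 24 h replicate 1, 3 or 4 or KD 72 h replicate 1, 2, 3 or 4 (adjusted p up to 0.079).

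Lipid synthesis genes had different values in the 2 clusters of libraries. *Thrsp*, a nuclear protein induced by thyroid hormone with lipogenic enzymes, rose from 254 (214 to 317) at 24 h to 541 (335 to 704) at 72 h (1.00 ± 0.16, adjusted p = 0.00091) with no overlap. *Srebf1*, the transcription factor that drives fatty acid synthesis genes, went from 23.1 (16.02 to 40.2) at 24 h to 13.4 (10.5 to 17.2) at 72 h (-0.81 ± 0.22, adjusted p = 0.026). Its change was -1.23, adjusted p = 0.0034 in the larger cluster and 0.02, adjusted p = 0.96 in the smaller one, and the call was lost without KD 24 h replicate 1 or KD 72 h replicate 2, 3 or 4 (adjusted p up to 0.065). *Me1* and *G6pdx*, enzymes that supply NADPH, fell by 0.57 and 0.49 on the log2 scale (adjusted p = 0.049 and 0.043). The *Me1* call was lost without KD 24 h replicate 1, 2 or 5 or KD 72 h replicate 1, 2, 3, 4 or 6 (adjusted p up to 0.10), and that of *G6pdx* without KD 24 h replicate 1, 2, 3, 4 or 5 or KD 72 h replicate 1, 2, 3, 4 or 6 (adjusted p up to 0.096). Within the smaller cluster *Me1* changed by 0.010 (adjusted p = 0.97). Over the 21 tested lipogenesis genes, 1 rose and 3 fell, with a median of -0.17. Within the larger cluster 1 rose and 7 fell at a median of -0.49, where 6.67% of all genes rose and 6.63% fell. Within the smaller cluster 6 rose and 1 fell at a median of 0.33, where 5.96% of all genes rose and 10% fell. The difference between the clusters was not tested. Values as deposited gave 2 rises and 0 falls. In NC cells, where 4.85% of genes rose and 4.64% fell, 5 of the 21 rose and 0 fell. By the interaction test, which asks whether the change over time differed between the arms, 0 of the 21 differed.

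Cholesterol synthesis and uptake genes fell without an exception among those called, 7 of 23 tested, with a median of -0.43 and 21 of 23 values below 0, and 3 fell and 0 rose on the deposited scale, with a median of -0.28. *Insig1*, which holds the sterol sensor SCAP in the endoplasmic reticulum, was 2508 (2009 to 2689.8) at 24 h and 1269.9 (544 to 1826) at 72 h (-1.18 ± 0.27, adjusted p = 0.013). The groups did not overlap, and the fall was -0.65 in the larger cluster and -2.25 in the smaller one. *Pmvk*, the phosphomevalonate kinase of the mevalonate pathway, went from 78.1 (60.6 to 88.9) at 24 h to 43.9 (38.3 to 51.5) at 72 h (-0.78 ± 0.12, adjusted p = 0.00085). *Cyp51*, a sterol demethylase, went from 37.2 (33.3 to 37.9) at 24 h to 25.99 (23.6 to 29.01) at 72 h (-0.47 ± 0.10, adjusted p = 0.0085), and *Sqle*, squalene epoxidase, changed by -0.53 ± 0.13 (adjusted p = 0.016). *Cyp51* and *Sqle* did not pass on the deposited scale (adjusted p = 0.12 and 0.11), nor did *Sqle* without KD 72 h replicates 5 and 6 (-0.50, adjusted p = 0.059). Without KD 72 h replicates 5 and 6, a comparison in which 5.17% of all genes rose and 4.19% fell, 6 of the list fell. NC cells went the same way, with 9 of 22 tested lower and 0 higher at a median of -0.30. By the interaction test 0 of 24 differed between the arms.

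Mitochondrial genes were shifted slightly and widely downward relative to the bulk of genes, and most of their calls depended on the scaling. For nuclear subunits of complexes II to V, 36 of 40 tested values were below 0, the median was -0.24, and 11 fell while 0 rose. As deposited, the median was -0.09 and 0 of the 40 were called. *Uqcr11*, a subunit of complex III, is typical, at 1631 (1577 to 1789.8) at 24 h and 1196 (1122 to 1356) at 72 h (-0.45 ± 0.09, adjusted p = 0.0033). It did not overlap between groups. *Cox4i1*, a core subunit of cytochrome c oxidase, went from 1907 (1692 to 2174) at 24 h to 1301 (1200.1 to 1633) at 72 h (-0.49 ± 0.11, adjusted p = 0.010). *Cox7b*, another subunit of that enzyme, changed by -0.44 ± 0.09 (adjusted p = 0.0075) and *Atp5g3*, subunit c of ATP synthase, by -0.48 ± 0.10 (adjusted p = 0.0066). In complex I, which accepts electrons from NADH, 8 of 36 tested subunits fell and 0 rose, with a median of -0.24, and on the deposited scale 1 fell. That one was *Ndufb6*, at 656 (585 to 973) and 429.8 (416 to 451) (-0.67 ± 0.12, adjusted p = 0.0017, deposited scale -0.52, adjusted p = 0.028). *Ndufa4*, *Ndufa6* and *Ndufab1* changed by -0.43, -0.40 and -0.67 (adjusted p = 0.020, 0.027 and 0.030). *Ndufa4* lost its call without KD 72 h replicate 1 (adjusted p up to 0.052), *Ndufa6* without KD 72 h replicate 1, 2, 3 or 4 (adjusted p up to 0.068) and *Ndufab1* without KD 24 h replicate 1, 2 or 3 or KD 72 h replicate 1, 3, 4 or 6 (adjusted p up to 0.069) or without KD 72 h replicates 5 and 6 together (-0.66, adjusted p = 0.064). NC cells had 3 rises and 7 falls among 41 tested genes of complexes II to V, at a median of -0.040. Of 36 complex I subunits 4 rose and 3 fell in NC, at a median of -0.039. By the interaction test 0 of the 41 and 0 of the 36 differed between the arms.

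Mitochondrially encoded transcripts pointed the same way, with 6 of 6 tested values below 0 and 2 called, at a median of -0.44. These were *ND5* and *ND6*, complex I subunits whose genes overlap at their ends on opposite strands of the mitochondrial DNA. *ND6* lay at 1621 (1176 to 1982) at 24 h and 769 (603 to 1348) at 72 h (-0.85 ± 0.21, adjusted p = 0.017). *ND5* had nearly the same levels, 1637 (1157 to 2089) and 762 (601 to 1409.9) (-0.86 ± 0.23, adjusted p = 0.024), and since the use of strand was not stated, reads of the pair cannot be told apart. Neither passed on the deposited scale (adjusted p = 0.058 for *ND6* and 0.071 for *ND5*), and the *ND5* call was lost without KD 72 h replicate 1, 2, 3 or 4 (adjusted p up to 0.061). NC cells had 2 rises and 0 falls among 6 tested members of this list, at a median of 0.091. The median difference, KD minus NC, was -0.74, and 1 of the 6, *COX1*, differed by the interaction test, as described below.

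Among enzymes of fuel oxidation the calls were mostly lower, at shares above that of all genes on the scaled values. The falls were 18.2% of fatty acid oxidation, 13.6% of citrate cycle and 18.2% of branched-chain amino acid breakdown genes. Over all genes tested 5.04% fell. *Acadm*, the medium-chain acyl-CoA dehydrogenase of fatty acid oxidation, went from 200.3 (169.7 to 244) at 24 h to 105 (88.6 to 183) at 72 h (-0.79 ± 0.17, adjusted p = 0.0069), with overlapping groups. *Acadl*, its long-chain counterpart, changed by -0.61 ± 0.15 (adjusted p = 0.017), with -0.90 in the larger and -0.05 in the smaller cluster. *Etfa* and *Etfb*, the electron transfer flavoprotein, fell by 0.49 and 0.46 on the log2 scale (adjusted p = 0.0080 and 0.022), *Etfb* not without KD 72 h replicate 1 or 2 (adjusted p up to 0.058). *Decr1*, a reductase for unsaturated fatty acids, rose by 0.43 ± 0.12 (adjusted p = 0.031), a call lost without KD 24 h replicate 1 or KD 72 h replicate 1, 3, 5 or 6 (adjusted p up to 0.072) and without KD 72 h replicates 5 and 6 together (0.34, adjusted p = 0.13). That made 4 falls and 1 rise among 22 tested genes of the pathway, and 1 of each on the deposited scale, where the list's median was 0.05 in place of -0.11. In the citrate cycle 20 of 22 values were below 0 and 3 genes fell, on the deposited scale 0. They were *Cs*, citrate synthase (-0.53, adjusted p = 0.027), *Dld*, a subunit of several dehydrogenase complexes (-0.52, adjusted p = 0.028), and *Pcx*, pyruvate carboxylase (-0.43, adjusted p = 0.049). Each lost its call when 1 library was left out, *Cs* without KD 24 h replicate 5 or KD 72 h replicate 1, 2, 3 or 4 (adjusted p up to 0.069), *Dld* without KD 24 h replicate 2 or 3 or KD 72 h replicate 1, 2 or 3 (adjusted p up to 0.073) and *Pcx* without KD 24 h replicate 1, 2 or 5 or KD 72 h replicate 1, 2, 3, 4 or 6 (adjusted p up to 0.11). *Pcx* changed by -0.64, adjusted p = 0.015 in the larger and -0.02, adjusted p = 0.94 in the smaller cluster. Breakdown of branched-chain amino acids, a fuel of brown fat, had 4 falls and 0 rises among 22. *Ppm1k*, the phosphatase that activates the branched-chain dehydrogenase, went from 4.45 (2.49 to 6.08) at 24 h to 1.82 (1.10 to 2.03) at 72 h (-1.28 ± 0.23, adjusted p = 0.0023) and did not overlap. *Bcat2*, the mitochondrial aminotransferase, went from 25.4 (15.97 to 26.7) at 24 h to 12.2 (10.4 to 16.7) at 72 h (-0.83 ± 0.17, adjusted p = 0.0049). *Oxct1* and *Bckdhb* changed by -0.71 and -0.75 (adjusted p = 0.0085 and 0.017), and on the deposited scale only the other two of the 4 were called. Mitochondrial ribosomal proteins stayed near the background, with 3 of 73 lower, *Mrps2*, *Mrpl38* and *Mrpl44* (-0.63, -0.67 and -0.52), none of them called on the deposited scale (adjusted p = 0.12, 0.10 and 0.19). *Mrpl38* lost its call without KD 24 h replicate 1, 2 or 5 or KD 72 h replicate 2, 4, 5 or 6 (adjusted p up to 0.067) and *Mrpl44* without KD 24 h replicate 1, 2, 3 or 5 or KD 72 h replicate 1, 3, 4 or 5 (adjusted p up to 0.10). *Mrpl38* did not pass without KD 72 h replicates 5 and 6 either (-0.55, adjusted p = 0.10). Within the smaller cluster the changes were -0.16 for *Mrps2* and -0.20 for *Mrpl44*. Among 35 tested peroxisomal genes 1 rose, *Acaa1b*, a thiolase of peroxisomal fatty acid oxidation, from 38.1 (19.1 to 50.4) at 24 h to 62.7 (59.3 to 72.9) at 72 h (0.96 ± 0.22, adjusted p = 0.012), and 0 fell.

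**Figure D2:**
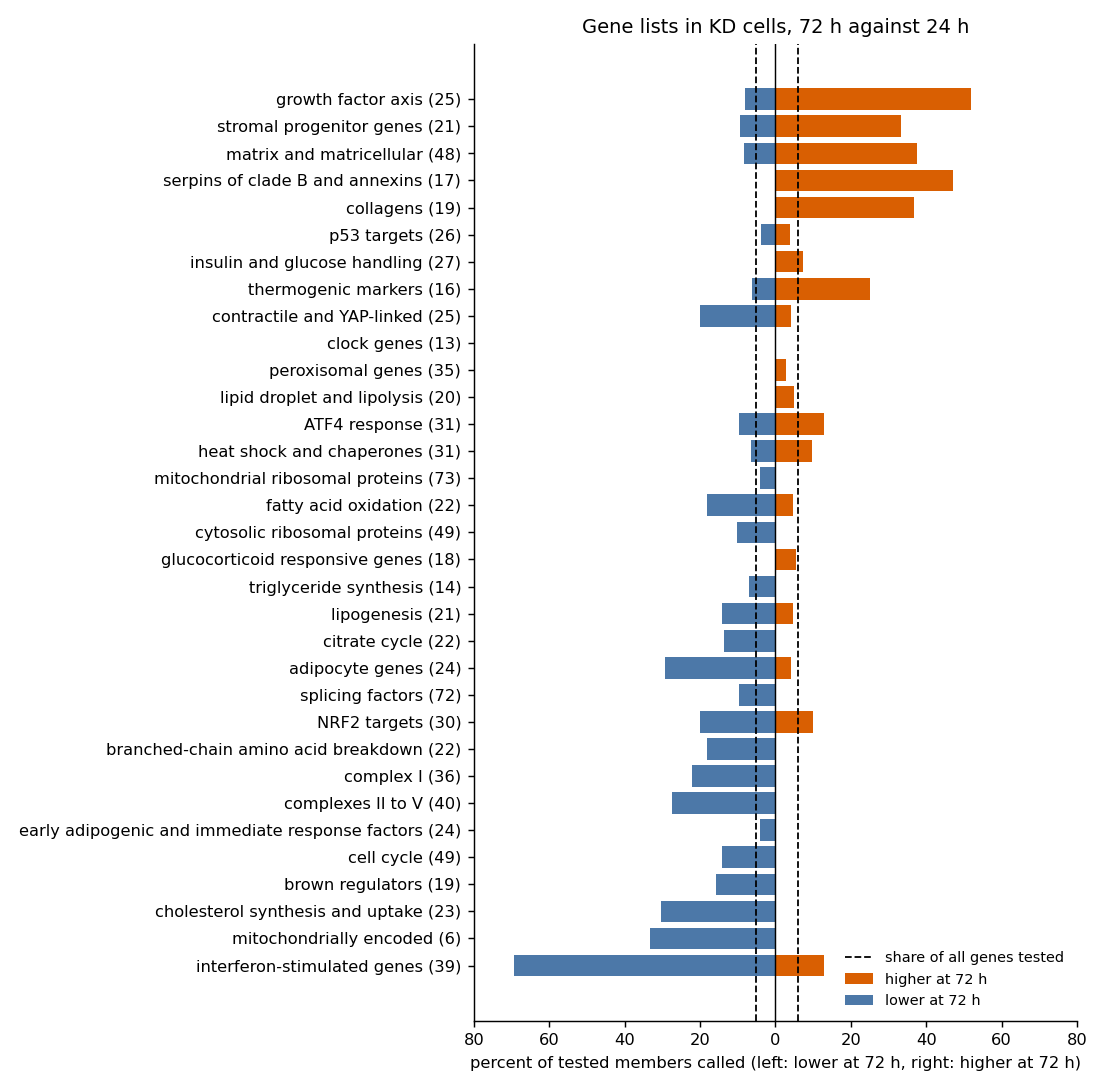
Percent of the tested members of each gene list called higher (orange, right) or lower (blue, left) at 72 h than at 24 h in KD cells, with the number of members tested in brackets and lists ordered by median log2 fold change. Dashed lines give the shares over all genes tested, 6.04% higher and 5.04% lower. Growth factor, matrix, collagen, stromal and serpin lists extend furthest to the right, and interferon-stimulated genes furthest to the left.

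Extracellular matrix genes, which preadipocytes express strongly, were more often higher than lower at 72 h. Of 48 tested matrix and matricellular genes, 18 rose and 4 fell, with a median of 0.37, and 20 did not overlap between groups. Without the scaling 23 rose and 3 fell. In NC cells 17 of 48 rose and 1 fell at a median of 0.38, and 0 of 49 differed between the arms. *Fbln2*, which encodes the matrix glycoprotein fibulin 2, went from 52.98 (47.2 to 57.1) at 24 h to 129 (127 to 166) at 72 h (1.36 ± 0.10, adjusted p = 2.0e-06). *Thbs2*, thrombospondin 2, went from 52.4 (44.4 to 59.01) at 24 h to 125 (106 to 142) at 72 h (1.25 ± 0.11, adjusted p = 5.0e-06). Both separated the groups by wide gaps. *Timp3*, an inhibitor of metalloproteinases, rose from 11.7 (7.35 to 15.7) at 24 h to 37.7 (28.5 to 42.7) at 72 h (1.66 ± 0.18, adjusted p = 3.2e-05). *Mmp11*, a metalloproteinase, rose from 10.4 (6.75 to 12.2) at 24 h to 25.5 (21.7 to 32.2) at 72 h (1.39 ± 0.16, adjusted p = 5.8e-05). The 4 that fell were *Mgp*, matrix Gla protein, an inhibitor of calcification (-1.38 ± 0.18, adjusted p = 0.00018), *Nid2*, a basement membrane protein (-0.94, adjusted p = 0.011), *Sparcl1*, a relative of SPARC (-0.92, adjusted p = 0.0064), and *Mmp19* (-0.45, adjusted p = 0.050). The *Mmp19* call was lost on the deposited scale (adjusted p = 0.18), without KD 72 h replicates 5 and 6 (-0.32, adjusted p = 0.17) and without any single library other than KD 24 h replicate 1 (adjusted p up to 0.099). Among collagens 7 of 19 rose and 0 fell, at a median of 0.29. In NC cells 8 of 19 rose and 0 fell. *Col5a2*, a chain of fibrillar collagen V, went from 54.6 (52.4 to 66.7) at 24 h to 86.9 (76.98 to 103) at 72 h (0.63 ± 0.10, adjusted p = 0.0012). *Col11a1*, a chain of fibrillar collagen XI, was near the floor at 24 h, 0.243 (0.0948 to 0.386), and at 1.68 (1.47 to 1.93) at 72 h (2.43 ± 0.24, adjusted p = 1.9e-05). *Col8a1* and *Col16a1* rose by 1.86 ± 0.41 and 1.14 ± 0.26 (adjusted p = 0.0087 and 0.010). The chains of collagen I, the main fibrillar collagen, rose by 0.72 ± 0.18 for *Col1a1* and 0.52 ± 0.13 for *Col1a2* (adjusted p = 0.019 and 0.017), and neither passed without KD 72 h replicates 5 and 6 (adjusted p = 0.053 and 0.067). Without these libraries 5 collagens rose.

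Stromal progenitor genes were mixed. Of 21 tested, 7 rose and 2 fell, at a median of 0.37. *Cd9*, a tetraspanin of fibrogenic progenitors, went from 46.9 (31.2 to 69.3) at 24 h to 95.4 (84.1 to 101) at 72 h (0.98 ± 0.16, adjusted p = 0.0010), *Cd24a*, a surface marker of fat precursors, from 6.22 (5.60 to 7.83) at 24 h to 16.001 (8.98 to 27.4) at 72 h (1.30 ± 0.23, adjusted p = 0.0018), and *Pdgfrb*, the platelet-derived growth factor receptor beta, from 11.96 (10.3 to 14.7) at 24 h to 20.2 (18.05 to 25.5) at 72 h (0.75 ± 0.14, adjusted p = 0.0030). None of these overlapped between groups. *Gsn*, the actin-severing protein gelsolin, was the clearest fall of the list, from 779.6 (597 to 919) at 24 h to 234 (189 to 289) at 72 h (-1.69 ± 0.13, adjusted p = 2.5e-06), again without overlap. *Twist1*, a transcription factor of mesenchyme, changed by -0.66 ± 0.19 (adjusted p = 0.036), a call lost on the deposited scale (adjusted p = 0.14) and without KD 24 h replicate 1, 2 or 5 or KD 72 h replicate 1, 2, 3, 4, 5 or 6 (adjusted p up to 0.073). It was -0.66, adjusted p = 0.086 without KD 72 h replicates 5 and 6, and -0.91, adjusted p = 0.0067 in the larger and -0.17, adjusted p = 0.61 in the smaller cluster. The marker set of undifferentiated progenitors, with Pdgfra, Cd34, Ly6a, Pi16, Dpt and Lum, had 0 of 5 tested members called in either direction by limma, and its sum was 515 to 917 scaled RPKM at 24 h and 773 to 1015 at 72 h.

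Among the gene lists, the cell type marker sets left aside, that of secreted growth factors, their binding proteins and related secreted enzymes held the highest share of rises. Of 25 tested, 13 rose (52%) and 2 fell at a median of 0.78, and without the scaling 13 rose and 0 fell. Over all genes tested 6.04% rose. The lists were chosen with earlier results of these data known, so their order by share is a description only. NC cells had 11 rises and 2 falls among 25 at a median of 0.53. *Inhba*, which encodes the activin A subunit, went from 20.7 (15.98 to 21.8) at 24 h to 35.1 (25.4 to 41.6) at 72 h (0.81 ± 0.14, adjusted p = 0.0018). *Wisp2*, a matricellular protein of the Wnt pathway, went from 21.8 (17.1 to 26.3) at 24 h to 37.7 (32.4 to 41.2) at 72 h (0.78 ± 0.13, adjusted p = 0.0016). *Ctsk*, one of the enzymes, the collagen-degrading protease cathepsin K, went from 12.9 (8.80 to 15.7) at 24 h to 27.1 (24.4 to 33.7) at 72 h (1.16 ± 0.16, adjusted p = 0.00025). In each of these the lowest 72 h library lay above the highest 24 h library. *Dkk3*, a Dickkopf family member, rose from near the floor, 0.246 (0 to 0.605), to 2.02 (1.42 to 2.27) (2.63 ± 0.39, adjusted p = 0.00053). The falls were *Igfbp6*, a binding protein for insulin-like growth factors, from 65.5 (36.9 to 86.1) at 24 h to 34.8 (23.5 to 42.3) at 72 h (-0.80 ± 0.20, adjusted p = 0.020), and *Fst*, the activin antagonist follistatin, from 11.2 (7.79 to 18.3) at 24 h to 6.93 (5.44 to 7.35) at 72 h (-0.75 ± 0.20, adjusted p = 0.027). These 2 were not called on the deposited scale (adjusted p = 0.080 and 0.095), and the call of *Fst* was lost without KD 24 h replicate 1 or KD 72 h replicate 5 (adjusted p up to 0.059) and without KD 72 h replicates 5 and 6 together (-0.68, adjusted p = 0.094). The change of *Igfbp6* was -1.16, adjusted p = 0.0023 in the larger and -0.09, adjusted p = 0.74 in the smaller cluster.

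Most of the largest falls in KD cells were those of interferon-stimulated genes, the antiviral genes that cells switch on in response to interferons. Of 39 tested, 27 fell and 5 rose, the median was -1.26, and 28 did not overlap between groups. On the deposited scale 24 fell and 5 rose, and without KD 72 h replicates 5 and 6, 25 fell and 4 rose. NC cells went the same way, with 30 lower and 1 higher of 39 at a median of -1.83. To show what some of these genes share in sequence, 250 bases before the annotated start of *Cxcl10*, *Rsad2* and *Ifit3*, 3 of the genes that fell, are set beside those of *Ifitm2*, a member that rose. Windows are from RefSeq on build GRCm38.p6, read 5′ to 3′ along the gene's strand, at chr5:92348890-92349139 (minus strand) for *Cxcl10*, chr12:26456453-26456702 (minus) for *Rsad2*, chr19:34583279-34583528 (plus) for *Ifit3* and chr7:140955962-140956211 (minus) for *Ifitm2*. Capitals mark GAAA followed after any 2 bases by another GAAA, or the reverse complement of this pattern, TTTC, any 2 bases and TTTC, searched on both strands. The pattern is the core of the element that interferon regulatory factors bind.
Cxcl10: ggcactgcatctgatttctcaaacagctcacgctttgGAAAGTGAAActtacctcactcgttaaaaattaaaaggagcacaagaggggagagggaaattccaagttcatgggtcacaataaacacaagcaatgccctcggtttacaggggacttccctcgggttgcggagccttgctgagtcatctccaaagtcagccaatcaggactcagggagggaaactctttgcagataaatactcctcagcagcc
Rsad2: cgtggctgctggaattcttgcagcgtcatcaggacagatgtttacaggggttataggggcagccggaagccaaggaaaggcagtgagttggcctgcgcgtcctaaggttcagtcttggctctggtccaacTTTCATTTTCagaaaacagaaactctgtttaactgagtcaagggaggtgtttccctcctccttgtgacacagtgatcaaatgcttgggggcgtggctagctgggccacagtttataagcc
Ifit3: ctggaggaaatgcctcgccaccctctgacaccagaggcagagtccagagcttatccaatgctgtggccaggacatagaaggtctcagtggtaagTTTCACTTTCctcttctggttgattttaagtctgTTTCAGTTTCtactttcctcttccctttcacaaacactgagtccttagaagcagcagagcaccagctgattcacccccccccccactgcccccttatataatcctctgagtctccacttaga
Ifitm2: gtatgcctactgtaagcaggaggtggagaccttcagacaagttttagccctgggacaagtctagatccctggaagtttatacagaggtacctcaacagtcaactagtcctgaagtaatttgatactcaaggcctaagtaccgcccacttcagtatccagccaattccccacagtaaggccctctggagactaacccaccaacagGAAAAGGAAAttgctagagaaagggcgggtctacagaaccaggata
The letters were present in 978 of 32851 windows of this length (2.98%), and in a window of 3.46% of 27025 genes. Of the 27 interferon-stimulated genes that fell, 20 had a window matched by symbol, and 10 of these 20 held the letters. Of the 5 that rose, 2 were matched and 1, *Ifitm2*, held them, so the letters were found on both sides. A match is a description of sequence and not a measured site.

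*Cxcl10*, a chemokine that attracts T cells, went from 793 (247 to 1090.1) at 24 h to 39.8 (18.7 to 89.4) at 72 h. Its groups did not overlap, and the change of -4.10 ± 0.42 (adjusted p = 2.4e-05) is a 17.2-fold drop. *Rsad2*, the antiviral enzyme viperin, went from 484 (96.5 to 607) at 24 h to 26.7 (12.2 to 38.3) at 72 h (-3.73 ± 0.43, adjusted p = 6.2e-05). *Cmpk2*, a nucleotide kinase that neighbours *Rsad2*, had the largest fall of all genes that met the naming rule, from 73.2 (14.6 to 133) at 24 h to 2.76 (1.36 to 4.72) at 72 h (-4.29 ± 0.51, adjusted p = 8.0e-05). In these genes the spread at 24 h was wide, and in each of the 3 KD 24 h replicates 3 and 4, the members of the smaller cluster, were the lowest of their group. Within the smaller cluster the change was still -2.99 for *Rsad2*, -4.07 for *Cxcl10* and -3.50 for *Cmpk2*. *Ifih1*, the RNA sensor MDA5, went from 21.6 (17.1 to 35.03) at 24 h to 4.95 (4.45 to 5.80) at 72 h (-2.14 ± 0.17, adjusted p = 2.5e-06). *Ifit3* and *Ifit1*, which bind or block foreign RNA, went from 1027 (627 to 1452) at 24 h to 132 (114 to 204) at 72 h and from 684 (406 to 839) at 24 h to 114 (86.1 to 175) at 72 h (-2.75 and -2.40, adjusted p = 4.2e-06 and 4.2e-06). *Ifit2* and *Mx1*, a dynamin-like GTPase against viruses, changed by -3.59 ± 0.47 and -2.96 ± 0.38 (adjusted p = 0.00021 and 0.00018). *Iigp1*, an interferon-inducible GTPase, changed by -3.10 ± 0.19 (adjusted p = 3.8e-07). The remaining genes with the largest falls were *Gm14446*, *I830012O16Rik*, *Gm4841*, *Gm12250* and *F830016B08Rik*, at -2.81 to -3.02, and *1100001G20Rik*, a small secreted protein of the whey acidic protein type, at -3.15 ± 0.41. Several of them belong to families of near-identical copies, among which reads may have been split.

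A minority of 5 members of the interferon list moved the other way. *Ifi27l2a*, a small interferon-inducible membrane protein, went from 489 (272 to 519) at 24 h to 2027 (1509 to 2473) at 72 h (2.20 ± 0.18, adjusted p = 3.9e-06). *Ifi27l2b*, a close copy with which it may share reads, went from 11.2 (8.19 to 14.9) at 24 h to 94.8 (24.8 to 105) at 72 h (2.56 ± 0.36, adjusted p = 0.00034). At 72 h *Ifi27l2b* was 93.9 to 105 in replicates 1 to 4 and 31.2 and 24.8 in replicates 5 and 6, and it rose in either cluster (2.95 and 1.75). *Ifitm2*, a membrane protein that hinders virus entry, *Ccl5*, a chemokine, and *Lgals3bp*, a secreted glycoprotein, rose by 0.64 ± 0.16, 1.01 ± 0.24 and 0.48 ± 0.12 (adjusted p = 0.018, 0.015 and 0.021). *Lgals3bp* did not pass without KD 72 h replicates 5 and 6 (adjusted p = 0.074).

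**Figure D3:**
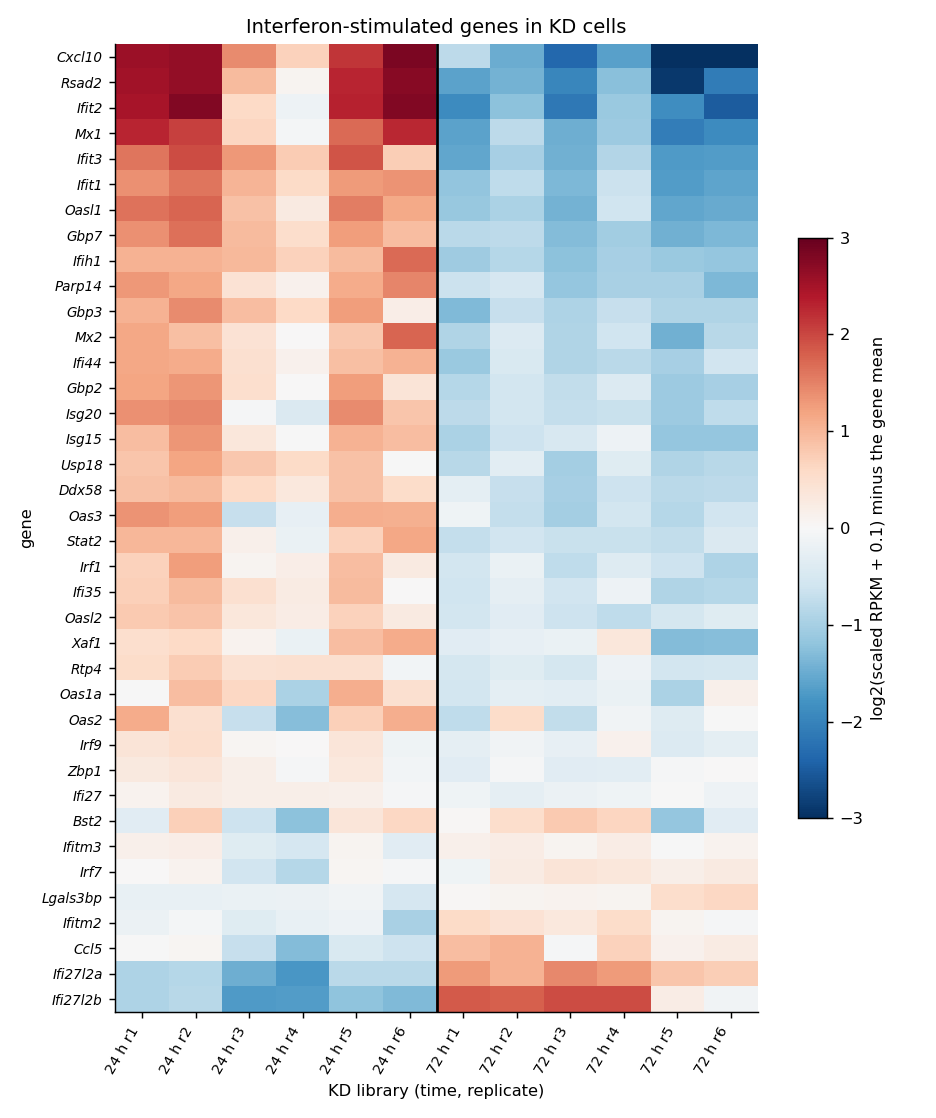
Heat map of tested interferon-stimulated genes (rows, ordered by change) in the 12 KD libraries (columns, 24 h left and 72 h right of the black line). Colour is log2(scaled RPKM + 0.1) minus the gene's mean over the 12 libraries, with red above and blue below the mean and the scale ending at 3 in each direction. Genes that fell are mostly red at 24 h and blue at 72 h, for most of them palest at 24 h in replicates 3 and 4, and Ifi27l2a and Ifi27l2b at the bottom show the opposite order.

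The largest rises that met the naming rule were outside the adipocyte and thermogenic lists. *Spp1*, the secreted phosphoprotein osteopontin, went from 147 (71.4 to 273) at 24 h to 834 (694 to 914) at 72 h (2.50 ± 0.24, adjusted p = 1.6e-05), with a gap between the groups. *Lrg1*, a secreted glycoprotein of inflammation, went from 10.1 (5.75 to 13.5) at 24 h to 56.9 (32.3 to 78.01) at 72 h (2.55 ± 0.26, adjusted p = 2.3e-05). *Cck*, the peptide hormone cholecystokinin, went from 11.9 (6.66 to 22.3) at 24 h to 88.4 (56.3 to 109) at 72 h (2.75 ± 0.26, adjusted p = 1.5e-05). *Ncam1*, a neural cell adhesion molecule, went from 7.88 (4.35 to 9.22) at 24 h to 54.3 (19.7 to 81.7) at 72 h (2.68 ± 0.35, adjusted p = 0.00021), with 3.40 in the larger and 1.22 in the smaller cluster. *Ifi27l2b*, and the *Anxa8* and *Serpinb9g* described next, were also among the 12 largest rises, and the other 5 had medians below 10 scaled RPKM at both times. *Ddx4*, an RNA helicase of germ cells, went from 1.01 (0.498 to 1.33) at 24 h to 9.46 (4.97 to 15.1) at 72 h (3.12 ± 0.32, adjusted p = 2.3e-05). *Tmem59l* rose to 8.99 (7.41 to 10.5) from 0.908 (0 to 2.62) and *Crtac1*, a cartilage acidic protein, to 3.73 (1.45 to 6.62) from 0.261 (0 to 1.05). *Lamb3*, a laminin chain of epithelia, and *Csgalnact1*, an enzyme of chondroitin sulphate synthesis, rose by 2.50 ± 0.34 and 2.48 ± 0.33 (adjusted p = 0.00028 and 0.00020). At these levels a log2 fold change depends on the added 0.1.

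Serpins of clade B, which are intracellular protease inhibitors, and annexins, which bind membranes with calcium, rose in 8 of 17 tested members (47.1%) and fell in 0, at a median of 0.33, and on the deposited scale 9 rose and 0 fell. Over all genes tested 6.04% rose, and this list too was chosen with earlier results of these data known. *Serpinb9b* went from 17.9 (10.4 to 26.05) at 24 h to 81.5 (55.3 to 88.5) at 72 h (2.15 ± 0.21, adjusted p = 1.9e-05). *Serpinb9g*, a near copy with which it may share reads, went from 0.440 (0.264 to 2.08) at 24 h to 7.43 (4.77 to 9.05) at 72 h (3.24 ± 0.42, adjusted p = 0.00019). *Anxa8*, normally an annexin of epithelia, went from 3.07 (0.693 to 4.98) at 24 h to 27.4 (15.2 to 35.3) at 72 h (3.19 ± 0.37, adjusted p = 7.2e-05), and *Anxa5* from 770.0 (642 to 839) at 24 h to 1088 (939 to 1188) at 72 h (0.51 ± 0.10, adjusted p = 0.0033). None of these 4 overlapped between times. The epithelial and mesothelial keratin *Krt19* went from 52.7 (25.9 to 79.8) at 24 h to 159.7 (100.5 to 169) at 72 h (1.55 ± 0.27, adjusted p = 0.0017), while *Wt1*, a transcription factor of mesothelium, stood at 0.0699 (0 to 1.08) and 1.40 (0.822 to 2.27) (2.71 ± 0.56, adjusted p = 0.0061). Their part in the rise of these genes was not tested.

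Each call among cell cycle genes was lower. Of 49 tested, 7 fell (14.3%) and 0 rose, at a median of -0.31, and over all genes tested 5.04% fell. On the deposited scale 1 fell, and within the larger cluster 2 fell and 0 rose, both shares below those of all genes, while within the smaller cluster 11 fell and 1 rose. *Mcm3* and *Mcm6*, subunits of the replicative helicase, went from 11.1 (8.27 to 12.9) at 24 h to 6.53 (4.48 to 6.89) at 72 h and from 4.996 (3.29 to 9.51) at 24 h to 2.56 (1.84 to 4.01) at 72 h (-0.81 ± 0.16 and -1.10 ± 0.27, adjusted p = 0.0045 and 0.018). *Mcm3* did not overlap and *Mcm6* did. *Ccne2*, cyclin E2, and *Ube2c*, a ubiquitin-conjugating enzyme of mitosis, changed by -0.69 and -0.58 (adjusted p = 0.023 and 0.025). *Ccne2* lost its call without KD 24 h replicate 2 or KD 72 h replicate 2 or 6 (adjusted p up to 0.058) and *Ube2c* without KD 72 h replicate 2 or 6 (adjusted p up to 0.059) or without KD 72 h replicates 5 and 6 together (-0.58, adjusted p = 0.066). The growth arrest gene *Cdkn1a*, which encodes p21, rose by 0.48 ± 0.13 (adjusted p = 0.025), though not without KD 24 h replicate 1 or 3 or KD 72 h replicate 1, 2 or 3 (adjusted p up to 0.062), and with the fall of *Gdf15* it was the only call among 26 tested p53 targets.

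Splicing factors were lower in KD at 72 h in 7 of 72 tested and higher in 0, with 58 values below 0 and a median of -0.21. On the deposited scale 3 fell and 1 rose, and without KD 72 h replicates 5 and 6, 2 fell. In NC cells 0 of 73 were called by limma. The 2 arms' changes did not differ by the interaction test for any of 73. *Hnrnpa2b1*, a nuclear RNA-binding protein, went from 180.3 (167 to 396) at 24 h to 102 (94.5 to 119) at 72 h (-1.02 ± 0.19, adjusted p = 0.0028), and its groups did not overlap. *Tra2b* and *Tra2a*, activators of exon inclusion, changed by -0.53 ± 0.12 and -0.90 ± 0.22 (adjusted p = 0.011 and 0.015), and neither passed without KD 72 h replicates 5 and 6 (adjusted p = 0.054 and 0.062). *Hnrnph2* changed by -0.89 ± 0.24 (adjusted p = 0.027), a call lost without KD 24 h replicate 2 or KD 72 h replicate 2, 5 or 6 (adjusted p up to 0.063) and without KD 72 h replicates 5 and 6 together (-0.64, adjusted p = 0.12). Among cytosolic ribosomal proteins, whose many pseudogenes can take reads, 5 of 49 fell and 0 rose, and on the deposited scale 2 fell. *Rpl5* went from 11.03 (8.54 to 15.8) at 24 h to 4.38 (3.86 to 5.79) at 72 h (-1.28 ± 0.18, adjusted p = 0.00028) and *Rpl22l1* from 584 (443 to 657) at 24 h to 341 (279 to 423) at 72 h (-0.69 ± 0.13, adjusted p = 0.0030). *Rpl41* and *Rpl31* changed by -0.32 and -0.79, and on the deposited scale neither passed (adjusted p = 0.34 and 0.11). *Rpl41* lost its call without KD 24 h replicate 2 or KD 72 h replicate 1, 2 or 3 (adjusted p up to 0.067) and *Rpl31* without KD 24 h replicate 1, 2 or 3 or KD 72 h replicate 2, 3, 5 or 6 (adjusted p up to 0.085) or without KD 72 h replicates 5 and 6 together (-0.79, adjusted p = 0.095).

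Stress genes were called in both directions, as were genes in general. In the list of genes driven by ATF4, the factor of the integrated stress response, 4 of 31 rose (12.9%) and 3 fell (9.68%). Over all genes tested 6.04% rose and 5.04% fell. Within the larger cluster 3 rose and 5 fell, where 6.67% of all genes rose and 6.63% fell. Within the smaller one 8 rose and 1 fell, where 5.96% of all genes rose and 10% fell. *Nupr1*, a small chromatin protein of stressed cells, had the largest rise, from 279.6 (169.6 to 442) at 24 h to 1741 (950.3 to 2085) at 72 h (2.42 ± 0.27, adjusted p = 4.1e-05). *Ddit3*, which encodes CHOP, went from 65.2 (49.9 to 96.4) at 24 h to 151 (125 to 161) at 72 h (1.14 ± 0.14, adjusted p = 0.00015), and *Fgf21*, a stress hormone also made by thermogenic fat, from 25.03 (11.6 to 34.02) at 24 h to 54.1 (37.3 to 71.1) at 72 h (1.13 ± 0.25, adjusted p = 0.0084). *Gdf15*, another stress hormone, fell instead, from 33.7 (16.95 to 36.5) at 24 h to 11.7 (10.9 to 15.96) at 72 h (-1.16 ± 0.21, adjusted p = 0.0026), with -1.54 in the larger cluster and -0.41 in the smaller. Chaperones were called at shares near those of all genes. *Cryab*, a small heat shock protein, went from 72.5 (54.7 to 116) at 24 h to 290.1 (171 to 334) at 72 h (1.73 ± 0.20, adjusted p = 6.1e-05) and *Hspb8*, another, rose by 0.57 ± 0.13 (adjusted p = 0.013). *Hspd1* and *Hspe1*, the mitochondrial chaperonin pair, fell by 0.78 and 0.50 on the log2 scale (adjusted p = 0.0016 and 0.0014). In that list 3 of 31 rose (9.68%) and 2 fell (6.45%).

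Among 30 tested targets of NRF2, the factor of the antioxidant response, 3 rose and 6 fell, and on the deposited scale 5 rose and 1 fell. The rises were an epoxide hydrolase and 2 aldose reductase-like enzymes, close copies among which reads may have been split. *Akr1b8* went from 108 (85.1 to 130.4) at 24 h to 391 (223 to 422) at 72 h (1.62 ± 0.17, adjusted p = 3.2e-05), *Akr1b3* from 26.2 (11.3 to 37.9) at 24 h to 69.6 (46.9 to 82.6) at 72 h (1.45 ± 0.26, adjusted p = 0.0024) and *Ephx1* from 19.5 (9.11 to 26.8) at 24 h to 36.1 (32.3 to 42.7) at 72 h (1.04 ± 0.21, adjusted p = 0.0059). *Gsta4*, a glutathione transferase, was among the falls, from 22.7 (16.6 to 33.9) at 24 h to 12.97 (8.31 to 18.4) at 72 h (-0.91 ± 0.22, adjusted p = 0.016, deposited scale -0.75, adjusted p = 0.052, smaller cluster -0.31, adjusted p = 0.27). Few genes of the induction phase were called over all 12 libraries. Of 24 early adipogenic and immediate response factors 1 fell, the zinc finger factor *Egr1* (-1.47, adjusted p = 0.027), and it lost the call without KD 24 h replicate 1 or 2 or KD 72 h replicate 1, 3 or 4 (adjusted p up to 0.063). *Egr1* did not pass without KD 72 h replicates 5 and 6 (-1.49, adjusted p = 0.072), and its change was -2.13, adjusted p = 0.00075 in the larger and -0.17, adjusted p = 0.84 in the smaller cluster. Of that list 7 fell and 0 rose within the larger cluster, at a median of -0.36, and 0 fell and 1 rose within the smaller one, at a median of 0.05. Of 18 glucocorticoid responsive genes 1 rose, the metallothionein *Mt2* (0.84, adjusted p = 0.030), and it lost the call without KD 24 h replicate 3 or 4 or KD 72 h replicate 1, 2 or 4 (adjusted p up to 0.071). The median of these 18 was -0.30 within the larger cluster, with 1 rise and 2 falls, and 0.52 within the smaller one, with 3 rises and 0 falls. Of 25 contractile and YAP-linked genes 5 fell and 1 rose, and on the deposited scale 2 fell and 5 rose. Within the larger cluster 7 fell and 7 rose, and within the smaller one 8 fell and 2 rose. *Acta1*, a skeletal muscle actin, changed by -1.75, the actin-binding *Csrp1* by -0.52 and the YAP target *Cyr61* by -0.65 (adjusted p = 0.029, 0.024 and 0.031). The rise was *Cald1*, caldesmon (0.76, adjusted p = 0.013). *Acta1* lost its call without KD 24 h replicate 3, 4 or 5 or KD 72 h replicate 2, 3 or 4 (adjusted p up to 0.067), *Csrp1* without KD 24 h replicate 2 or KD 72 h replicate 2, 5 or 6 (adjusted p up to 0.055) and *Cyr61* without KD 24 h replicate 1, 2 or 5 or KD 72 h replicate 2, 3, 5 or 6 (adjusted p up to 0.069), and *Cald1*, *Csrp1* and *Cyr61* did not pass without KD 72 h replicates 5 and 6 together (adjusted p = 0.055, 0.10 and 0.11). *Cyr61* changed by -0.24, adjusted p = 0.29 in the smaller cluster. Of 27 genes of insulin action and glucose handling 2 rose, the pyruvate kinase *Pkm*, from 90.9 (68.9 to 140.3) at 24 h to 154 (143 to 170.1) at 72 h (0.70 ± 0.17, adjusted p = 0.017), and *Grb14*, an inhibitor of the insulin receptor, from 0.171 (0 to 1.55) at 24 h to 1.52 (1.08 to 2.26) at 72 h (2.32 ± 0.62, adjusted p = 0.026), and 0 fell. The *Grb14* call was lost without KD 24 h replicate 3 or KD 72 h replicate 2, 3 or 4 (adjusted p up to 0.060), and without KD 72 h replicates 5 and 6 neither was called (adjusted p = 0.061 for *Pkm* and 0.059 for *Grb14*). Within the smaller cluster 9 of these 27 rose and 0 fell, at a median of 0.46, and within the larger one 0 rose and 1 fell, at a median of 0.02. The differences between clusters were not tested. Of 13 clock genes 0 were called by limma.

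**Figure D4:**
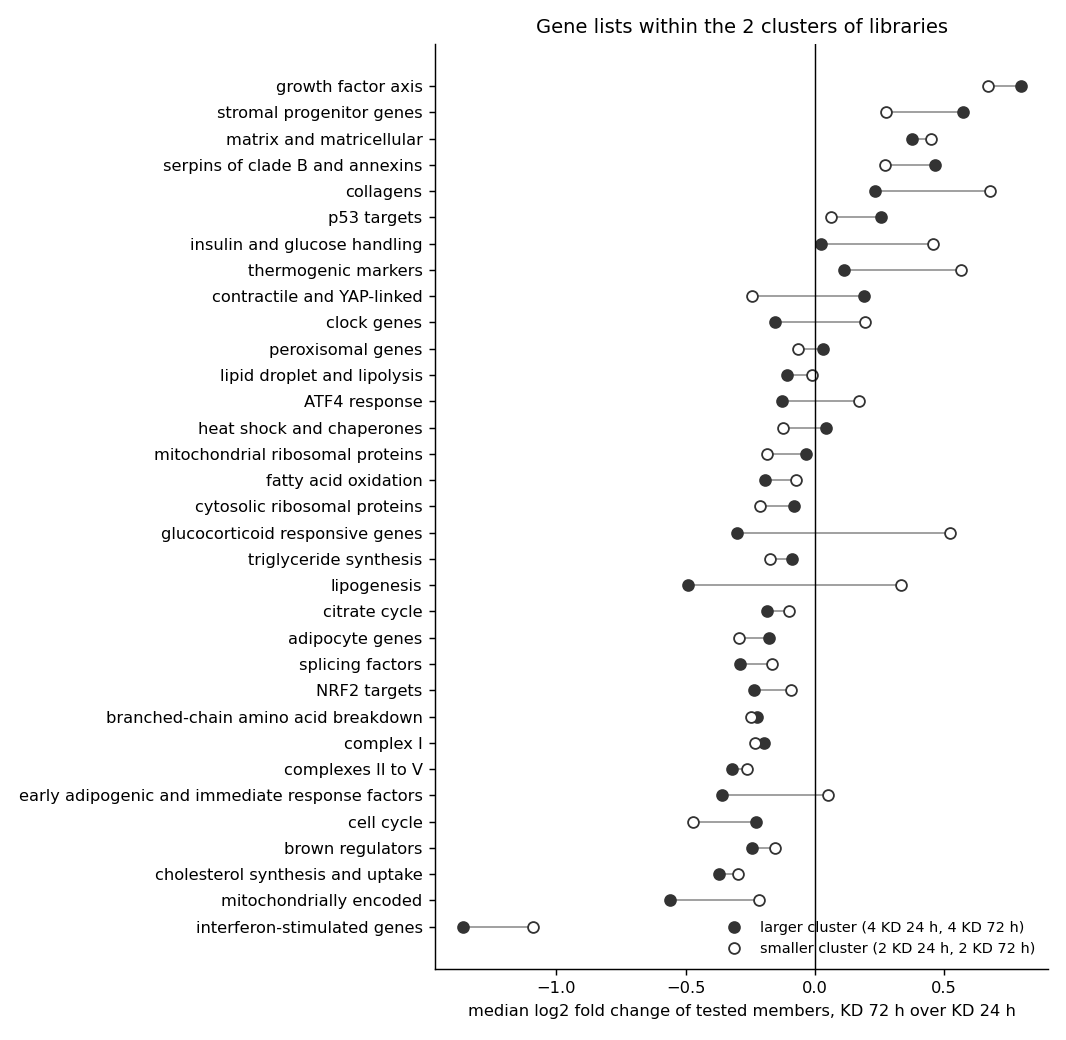
Median log2 fold change of the tested members of each list, KD 72 h over KD 24 h, fitted within the larger cluster of libraries (filled, 4 per time) and within the smaller one (open, 2 per time). Interferon-stimulated genes lie furthest left in both, growth factor, matrix, stromal and collagen lists lie right of 0 in both, and lipogenesis lies at -0.49 in the larger and 0.33 in the smaller cluster.

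The time course of KD cells was set beside that of NC cells, which share no library with it. NC cells had 1068 calls among 11249 genes (9.49%), 546 higher (4.85%) and 522 lower (4.64%). Over the 10685 genes tested in both arms, 216 were called higher in both, which is 34.3% of the KD rises and 40.7% of the NC rises. Another 234 were called lower in both, 42.2% of the KD falls and 45.9% of the NC falls. *Ifi27l2b* and *Akr1b3* were the 2 genes called in opposite directions, both higher in KD and lower in NC. For thermogenic markers the NC values were 4 higher and 1 lower of 16 at a median of 0.06. *Ucp1* rose by 2.48 in NC and 1.29 in KD, and *Cidea* by 2.32 and 1.27, but the differences did not pass the interaction test (adjusted p = 0.14 and 0.13). *Kcnk3* and *Fabp3*, which rose in KD, had -0.0067 and -0.37 in NC (interaction test, adjusted p = 0.091 and 0.21). *Cox7a1* had 0.83 in NC and -0.05 in KD, and *Cox8b*, also of the list, 1.31 and 0.0060 (interaction test, adjusted p = 0.19 and 0.15). The median difference, KD minus NC, was -0.28 over 17 tested markers.

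That test, which asks for each of 12695 genes whether the change over time differed between the arms, called 45 (0.354%), 32 more positive in KD (0.252%) and 13 more negative (0.102%). At an unadjusted p under 0.05 there were 1581. On the deposited scale 209 were more positive and 7 more negative. Of the 45, 25 had a called rise and 9 a called fall in KD. *Ifi27l2b* stood first, with 2.56 in KD and -1.52 in NC (difference 4.09 ± 0.47, adjusted p = 0.00012). *Akr1b3* had 1.45 in KD and -0.70 in NC (difference 2.15 ± 0.33, adjusted p = 0.0052), and *Akr1b8* 1.62 and 0.33 (1.30 ± 0.22, adjusted p = 0.0058). *Tfpi2*, an inhibitor of the tissue factor pathway, rose in KD from 33.9 (25.8 to 41.1) at 24 h to 86.95 (77.97 to 115) at 72 h and had 0.16 in NC (difference 1.30 ± 0.22, adjusted p = 0.0058). *Ascc2*, a subunit of a DNA repair and ribosome rescue complex, went from 4.12 (3.28 to 4.57) at 24 h to 8.08 (6.12 to 9.46) at 72 h in KD (difference 1.40 ± 0.23, adjusted p = 0.0058). *Slc5a7*, the choline transporter of cholinergic neurons, was at most 0.0857 scaled RPKM at 24 h and 0.872 (0.491 to 2.13) at 72 h (difference 3.00 ± 0.47, adjusted p = 0.0058). *Anxa8*, *Serpinb9b* and *Krt19* were also more positive in KD, with differences of 3.77 for *Anxa8* (adjusted p = 0.026), 2.01 for *Serpinb9b* (adjusted p = 0.035) and 1.51 for *Krt19* (adjusted p = 0.034). Leaving out 1 library ended the difference for *Anxa8* without KD 72 h replicate 1 (adjusted p = 0.054), for *Serpinb9b* in 12 of 23 fits (adjusted p up to 0.070, without KD 72 h replicate 1) and for *Krt19* in 11 of 23 (adjusted p up to 0.068, without KD 72 h replicate 2), while the differences of *Ifi27l2b*, *Akr1b3*, *Akr1b8*, *Tfpi2*, *Ascc2* and *Slc5a7* passed in all 23.

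On the negative side stood 2 adipokine genes of the adipocyte list. *Rbp4* had -1.11 in KD and 0.20 in NC (difference -1.30 ± 0.24, adjusted p = 0.011), and *Retn* -1.14 and -0.07 (difference -1.05 ± 0.23, adjusted p = 0.036). *Rpl5* had -1.28 and 0.01 (-1.28 ± 0.22, adjusted p = 0.0058). *Zadh2*, an oxidoreductase of prostaglandins, fell in KD from 12.9 (8.98 to 18.9) at 24 h to 5.27 (4.15 to 7.42) at 72 h and had 0.30 in NC (difference -1.47 ± 0.27, adjusted p = 0.014). *Gdf15* had -1.16 and 0.16 (difference -1.30 ± 0.28, adjusted p = 0.036), and *1100001G20Rik* -3.15 and -0.21 (difference -2.93 ± 0.62, adjusted p = 0.034). *COX1*, the mitochondrially encoded oxidase subunit, had -0.25 in KD, which did not pass (adjusted p = 0.094), and 0.51 in NC (difference -0.75 ± 0.15, adjusted p = 0.027). The differences of *Rbp4*, *Rpl5* and *Zadh2* passed in each of 23 fits that left out 1 library. That of *Retn* was lost in 13 (adjusted p up to 0.077, without KD 72 h replicate 2), *Gdf15* in 14 (up to 0.073, without KD 72 h replicate 3), *1100001G20Rik* in 10 (up to 0.067, without NC 72 h replicate 1) and *COX1* in 6 (up to 0.056, without KD 72 h replicate 3). On the deposited scale the differences of *Gdf15* and *COX1* did not pass, and without KD 72 h replicates 5 and 6 that of *1100001G20Rik* did not. With voom on recovered reads *Gdf15*, *1100001G20Rik*, *Anxa8* and *Slc5a7* did not pass, and within the smaller cluster alone *Rbp4*, *COX1*, *Gdf15*, *Anxa8*, *Serpinb9b*, *Slc5a7* and *Ascc2* did not. Of 24 adipocyte genes *Rbp4* and *Retn* differed between the arms, of 16 thermogenic markers tested in KD 0 did, and of 39 interferon-stimulated genes 1 did, *Ifi27l2b*.

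**Figure D5:**
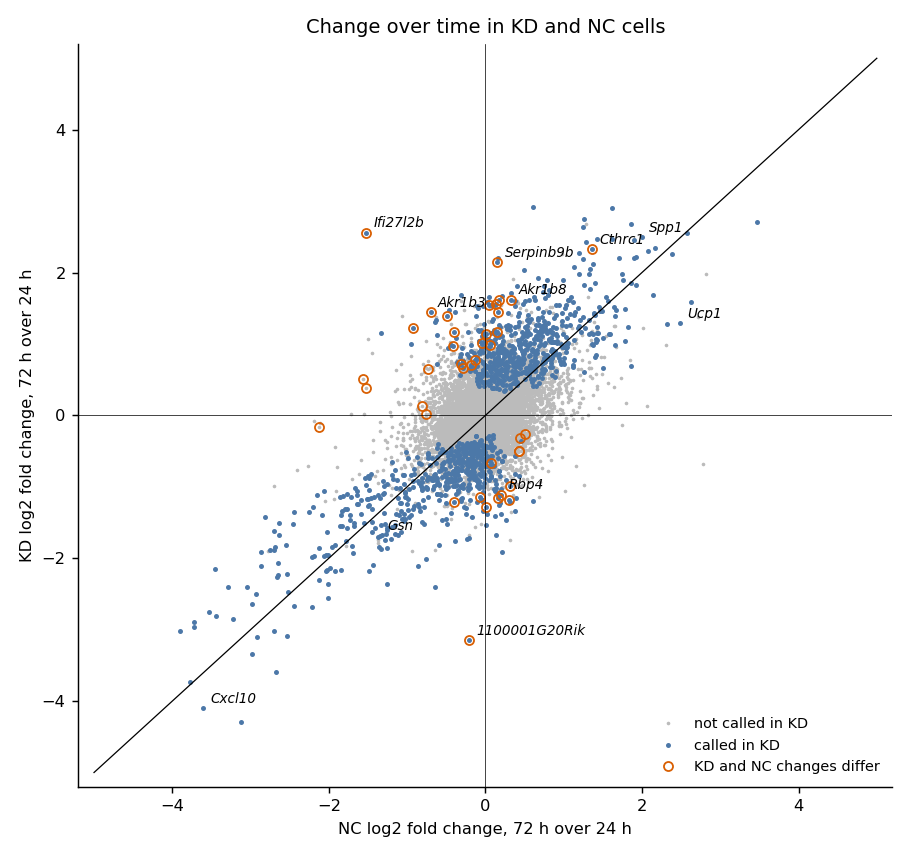
Log2 fold change of 72 h over 24 h in NC (horizontal) and KD cells (vertical) for the 10685 genes tested in both, with the line of equal change. Grey points were not called in KD, blue points were, and orange rings mark genes whose changes differed between the arms. Most blue points lie in the quadrants where both arms rise or both fall, and Ifi27l2b lies in the quadrant of a KD rise and an NC fall.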

How the data were processed

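The study measured polyadenylated RNA by bulk RNA barcoding and sequencing of transcript 3′ ends. Per the labels and methods, the authors mapped reads with the Genomatix software and deposited 1 table of RPKM values, which are reads per kilobase of transcript normalised to the mapped reads of each library. Genome build, annotation version and use of strand for these libraries are not given in the sources used here. Low RPKM values were whole multiples of 1 read in 94.14% to 95.02% of cases per library (tolerance 0.05 reads). This gave mapped reads of 1391832 to 5926375 per library (median 4009998). The highest total, that of NC 72 h replicate 6, is uncertain. Odd numbers made up 19.87% of its read counts, a share that lay between 56.17% and 58.51% elsewhere. It had 83874 entries above 0, while NC 24 h replicate 2 had 92152 at 5423840 reads. The cause was not tested, and the library was kept as a sample. Without it NC had 886 calls, and 37 genes differed between KD and NC.

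The table holds 168326 entries, and 1 row was chosen for each of 52089 symbols. Of these symbols, the 31964 with a recovered transcript length were used, and the others were left out. Values were scaled by the trimmed mean of log ratios, 0.1 was added and log2 taken. Genes above the level of 10 reads at the median depth in at least 6 of the 12 KD libraries were tested with limma 3.58.1 (R 4.3.3, empirical Bayes with trend), and p-values were adjusted by the Benjamini-Hochberg method over all genes tested. Shares of calls over all genes are given as the background. KD 24 h and KD 72 h, NC 24 h and NC 72 h, and the difference of the 2 changes were fitted separately. NC 72 h replicates 2 and 3, whose squared difference was 0.347 of counting noise against 2.038 or more in other pairs, were averaged. Gene lists, members and naming rules were chosen with earlier results of these data known. Named genes were the 12 largest rises and falls in KD with non-overlapping groups and at least 20 mean reads, the 4 smallest p-values and defining members of each list, and the 6 smallest p-values in each direction for the difference between KD and NC. A log2 change on the log2(RPKM + 0.1) scale understates that of low genes. On simulated data for the KD comparison the fit called 96% of 50 genes set to a log2 change of -2, 100% of 50 set to 2, 18% of 50 set to -1 or 1, and 0.06% of 10897 unchanged genes. The simulated spread was taken from read counts of the KD 24 h libraries, 1391832 to 5246160 mapped reads, without correction for depth. Differences in depth therefore entered as noise, and these shares do not give the sensitivity of the fit on the real libraries. A gene counted in the interferon-stimulated list is not reported here on its own and is left out of the heat map. Alternatives were other scalings, pseudocounts and filters, every row, a replicate block, library clusters, voom on recovered reads, a shared spread and leaving out libraries. Python 3.11.15, pandas 2.3.3, NumPy 2.4.6, SciPy 1.17.1 and matplotlib 3.10.9 were used.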

Additional observations from a re-analysis of the deposited data

Results flagged for a closer look

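Among the named genes 16 changed differently over time in KD than in NC by limma's interaction test, each value being the KD minus the NC log2 change. More positive in KD were *Ifi27l2b* (4.09), *Anxa8* (3.77), *Slc5a7* (3.00), *Akr1b3* (2.15), *Serpinb9b* (2.01), *Krt19* (1.51), *Ascc2* (1.40), *Akr1b8* (1.30) and *Tfpi2* (1.30). More negative were *1100001G20Rik* (-2.93), *Zadh2* (-1.47), *Rbp4* (-1.30), *Gdf15* (-1.30), *Rpl5* (-1.28), *Retn* (-1.05) and *COX1* (-0.75).

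In 14 of 306 gene and group pairs (4.58%) the highest or lowest of the 6 KD libraries stood apart on the log2 scale by a gap above Dixon's 95% critical share of the group's range, and chance flags about 1 in 20. Levels are scaled RPKM. KD 24 h replicate 6, the library with the fewest reads, was high for *Ndufb6* at 973 (others 585 to 703), *Col16a1* at 2.38 (others 0.794 to 1.20) and *Ifih1* at 35.0 (others 17.1 to 22.1), and low for *Ifitm2* at 187 (others 283 to 352) and *Lgals3bp* at 185 (others 224 to 243). In KD 72 h replicate 5, *Atp5g3* was at 1461 (others 1145 to 1245), *COX1* at 510.2 (others 404 to 435) and *Fst* at 5.44 (others 6.71 to 7.35). In KD 72 h replicate 6, *Fbln2* was at 166 (others 127 to 137). *Col8a1* was at 0.697 in KD 72 h replicate 2 (others 2.26 to 2.45), which left it inside the 24 h range. *Gm14446* was at 5.10 in KD 72 h replicate 4 (others 2.02 to 2.81), *Col5a2* at 66.7 in KD 24 h replicate 1 (others 52.4 to 57.1), *Anxa8* at 0.693 in KD 24 h replicate 4 (others 2.58 to 4.98) and *Cdkn1a* at 71.5 in KD 24 h replicate 5 (others 44.8 to 53.2).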

How the results depend on the processing

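The number of genes called over time in KD was 1255, and it stayed within 1.5 times of that on the deposited scale (1511), under median of ratios scaling (1251), pseudocounts of 0.5 and 1 (1313 and 1329), no filter (1038), voom on recovered reads (1341), a term for the library cluster (1667), the larger cluster alone (1520) and without KD 72 h replicates 5 and 6 (1099, an alternative chosen after seeing the data). It was 1885 in the smaller cluster alone, 1913 with 1 spread shared over the 4 groups and 5229 of 53198 entries when every row was tested. Leaving out 1 library gave 944 (without KD 72 h replicate 3) to 1599 (without KD 24 h replicate 6).

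Replicate numbers did not pair the KD libraries. Deviations of same-numbered libraries had a mean correlation of -0.018 (-0.152 to 0.055) against 0.004 for other numbers, and 1 of 6 libraries at 24 h and 0 of 6 at 72 h correlated best with its own number. With the replicate block KD had 983 calls, NC 654 and the difference between them 19, and the genes of the lists had 153 in place of 207.

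The NC count of 1068 was 1664 with the cluster term, 458 in the smaller cluster and 4818 with every row, and 802 to 1061 when 1 library was left out. The count of 45 differences between KD and NC was the least stable, at 216 on the deposited scale, 76 and 87 with pseudocounts of 0.5 and 1, 119 with every row, 173 with the cluster term, 259 and 442 in the larger and smaller cluster, 93 with voom, 73 with all libraries kept as samples, 97 without KD 72 h replicates 5 and 6, and 20 to 109 when 1 library was left out. Genes of the lists had 154 to 248 calls when 1 library was left out.

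Of 147 named genes that were called in KD, 73 kept the call in every alternative and 114 in every fit that left out 1 library. Calls were lost for 43 on the deposited scale, 36 in the smaller and 21 in the larger cluster, 33 without the filter, 26 with the replicate block, 22 without KD 72 h replicates 5 and 6, 7 with voom, 5 with the shared spread, 2 under median of ratios scaling and 0 with the other pseudocounts. The sign turned in the smaller cluster for *Srebf1* (0.02), *Me1* (0.010) and *Cidec* (-0.14). *Cox7a1*, which was not called, turned on the deposited scale (0.11), in the smaller cluster (0.73) and without KD 24 h replicate 6 (0.03) or KD 72 h replicate 1 (0.039), and its lowest value with 1 library left out was -0.16. For *Ctcflos* the difference between the KD times, in alternatives that were also chosen after seeing the data, was 0.0180 RPKM after scaling and -0.0151 (without KD 72 h replicate 5) to 0.128 (without KD 24 h replicate 6). The cause of each shift was not tested. At the floor of 3 reads, 0.165 to 0.620 RPKM for *Ctcflos* in KD libraries, low transcripts could not be followed.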
